A study of Mus musculus with 6 samples.

Results

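The 5 genes described here, Tpsab1, Tpsb2, Cpa3, Mcpt4 and Cma1, encode the neutral proteases stored in mast cell granules. They are 5 of 19051 named genes on the array and are read by 9 of its 45281 probes. They were chosen because they stood among the largest rises in the comparison of the 2 groups of arrays, so their values in that comparison chose them and are given as a description, with no test. Of the genes that passed the test over all genes, with clone and predicted names skipped, these 5 held ranks 1, 3, 5, 6 and 8 by size of rise. The lowest of them, Cma1, differed by 1.79 on the log2 scale, and the next genes down in that ranking, Slco2b1 and Angpt1, differed by 1.75 and 1.71.

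Mast cells are tissue immune cells of bone marrow origin that settle around vessels and in connective tissue, and they keep large amounts of active proteases bound to heparin proteoglycan in secretory granules. When the cell is triggered, through the IgE receptor among others, the granules are released and the proteases act on matrix proteins, peptides and other proteases outside the cell. In the mouse, mast cells of connective tissue hold tryptases, a carboxypeptidase and the chymases of the Mcpt4 and Cma1 kind, whereas mucosal mast cells hold Mcpt1 and Mcpt2. Mast cells are normal host cells and are found in mammary fat and at the edge of mammary tumours.

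The RNA came from tumours of 4T1, a mammary carcinoma line of BALB/c origin, grown in the fifth mammary fat pad of female BALB/c mice that were 8 to 10 weeks old and taken on day 7. The 3 arrays titled empty vector came from 4T1 cells carrying an empty lentivirus, and the 3 titled uPA overexpression from 4T1 cells carrying a lentivirus for mouse uPA, the urokinase-type plasminogen activator encoded by Plau. The vector was placed in the tumour cells alone and the hosts were not modified, so host stroma and immune cells were present in both groups. The labels do not say whether each array was a separate mouse, and p-values then measure only the spread between these 6 samples, which may in part be technical.

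Plau, the gene that the vector carried, went against the label on the 1 probe that read it. Its normalised log2 intensity was 12.97, 13.16 and 12.70 on the empty vector arrays 1, 2 and 3, and 11.94, 12.28 and 12.20 on arrays 1, 2 and 3 labelled uPA overexpression. The groups did not overlap, and Plau was lower in the group labelled as overexpressing it, by -0.80 (SE 0.15, limma adjusted p = 0.0305). The call was lost when any 1 array was left out, with adjusted p from 0.0518 to 0.0987, and the direction stayed. Whether the Plau probe reads the transcript of the vector was not tested. The groups are therefore named by label throughout, as empty vector tumours and as tumours labelled uPA overexpression, and every direction below rests on those labels. Mean raw intensity per array ran from 415.7 to 460.8, and 43.6% to 46.1% of probes were above background, so no array stood apart in brightness. A list of 7 skeletal muscle genes stood apart on array 3 labelled uPA overexpression, where its summed intensity was 10378, against 3789 on empty vector array 3 and 1722 to 2092 on the other 4. The number of arrays, 3 in each group, limits the precision of every value.

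The 5 genes lie in 3 places in the mouse genome. RefSeq places Tpsab1 and Tpsb2 on chromosome 17, Mcpt4 and Cma1 on chromosome 14 and Cpa3 on chromosome 3. RefSeq lists Tpsab1 as a transcribed pseudogene in the assembly GRCm38.p6, which is of the C57BL/6J strain. That strain lacks a working Tpsab1 tryptase, whereas BALB/c mice, the strain used here, are known to make it.

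Promoters are shown for the 3 of the 5 genes found in the RefSeq promoter table of GRCm38.p6. GATA2 is a transcription factor that mast cells require, and its own gene is on the list of mast cell markers described further on. The capitals mark a GATA motif, searched on both strands as AGATAA or AGATAG and as TGATAA or TGATAG, and each window holds the 250 bases before the gene's start.
Cpa3, chr3:20242182-20242431, minus strand: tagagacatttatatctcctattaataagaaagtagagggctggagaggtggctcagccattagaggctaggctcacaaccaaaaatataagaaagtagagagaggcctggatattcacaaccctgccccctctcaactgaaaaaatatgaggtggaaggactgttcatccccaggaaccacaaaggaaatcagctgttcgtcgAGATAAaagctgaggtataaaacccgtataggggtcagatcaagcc
Mcpt4, chr14:56062311-56062560, minus strand: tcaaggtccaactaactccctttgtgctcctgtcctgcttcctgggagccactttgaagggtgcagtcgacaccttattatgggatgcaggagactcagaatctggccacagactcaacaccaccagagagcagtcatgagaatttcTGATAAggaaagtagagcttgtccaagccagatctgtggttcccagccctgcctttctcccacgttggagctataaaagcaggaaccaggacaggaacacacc
Cma1, chr14:55944676-55944925, minus strand: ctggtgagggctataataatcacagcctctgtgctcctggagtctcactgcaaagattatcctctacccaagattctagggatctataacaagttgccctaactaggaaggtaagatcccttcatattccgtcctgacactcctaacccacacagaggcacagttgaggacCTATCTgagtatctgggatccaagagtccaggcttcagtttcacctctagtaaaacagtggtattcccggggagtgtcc
Cpa3 held AGATAA on its own strand 46 bases before the start, Mcpt4 held TGATAA on its own strand 103 bases before it, and Cma1 held AGATAG on the opposite strand 79 bases before it. A GATA motif was in 3 of 3 of these windows and in 26.5% of the 32851 windows of the same length in the table. An E-box, searched on both strands as CATGTG or CACGTG, the kind read by the mast cell factor MITF, was in 0 of 3 and in 17.6% of all windows. These matches describe the letters and do not show binding, and a shared regulator was not tested. With 3 windows, those of Mcpt4 and Cma1 on the same chromosome, nothing is read from the shares.

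The tryptases Tpsab1 (mMCP-7) and Tpsb2 (mMCP-6) are trypsin-like serine proteases that form tetramers around heparin. Tpsab1 was read by 1 probe, ILMN_2705860. Its raw intensities were 420.2, 202.8 and 310.1 on empty vector arrays 1, 2 and 3 and 1255.0, 1073.1 and 1600.1 on arrays 1, 2 and 3 labelled uPA overexpression. After background correction and quantile normalisation these became log2 values of 8.44, 7.31 and 8.09 against 10.28, 10.01 and 10.48. All 3 arrays labelled uPA overexpression were above all 3 empty vector arrays, with a gap of 1.57 between the nearest of them. The means were 7.94 ± 0.58 and 10.26 ± 0.24 (SD, n = 3 each), a difference of 2.31 (SE 0.282), or 4.97-fold. The ratio of the raw means, with background left in, was 4.21. Because these are whole tumours, more mast cells and more RNA per mast cell cannot be told apart, for this gene or the others.

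Tpsb2 was read by a pair of probes that did not behave alike. Probe ILMN_3161036 gave raw intensities of 134.2, 115.9 and 108.1 on the empty vector arrays and 342.0, 285.9 and 388.6 on the arrays labelled uPA overexpression. Its log2 values were 6.20, 6.05 and 5.82 against 8.18, 7.85 and 8.27, and the groups did not overlap. The difference was 2.08 (SE 0.154), or 4.22-fold, with group means of 6.02 ± 0.19 and 8.10 ± 0.22 (SD, n = 3 each). Probe ILMN_2668986 gave raw intensities of 74.1, 64.1 and 65.7 against 70.6, 67.9 and 61.3 and was not above background on any of the 6 arrays. It was left out of the test, and its log2 difference of -0.03 is between background levels. Tpsab1 and Tpsb2 are close paralogues whose transcripts can share signal on a probe. The probe sequences were not used here, so the 2 tryptases are uncertain singly, and cross-hybridisation was not tested.

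Cpa3 encodes the mast cell carboxypeptidase, a zinc enzyme that removes C-terminal residues from peptides such as endothelin 1. It was read by 3 probes, and the groups did not overlap on any of them. The brightest on average, ILMN_2609590, stands for the gene. Its raw intensities were 315.8, 212.9 and 196.8 on the empty vector arrays and 718.6, 607.3 and 913.7 on the arrays labelled uPA overexpression. In log2 units these were 7.95, 7.40 and 7.24 against 9.42, 9.13 and 9.64, means of 7.53 ± 0.37 and 9.40 ± 0.26 (SD, n = 3 each). Its difference was 1.87 (SE 0.212), or 3.64-fold. Probe ILMN_2991799 had log2 values of 7.75, 7.23 and 7.25 against 9.29, 8.64 and 9.24 and a difference of 1.65 (SE 0.219). Probe ILMN_1246690 was dimmer, at 5.85, 4.93 and 5.20 against 6.59, 6.48 and 6.68, and differed by 1.26 (SE 0.224). It was above background on 5 of the 6 arrays and missed it on empty vector array 2, where its detection p was 0.0641. The 3 probes thus had the same direction and sizes from 1.26 to 1.87, and the smallest came from the probe nearest to background.

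Mcpt4 (mMCP-4) is the main chymase of connective tissue mast cells in the mouse and cleaves after aromatic residues. It was read by 1 probe, ILMN_1240746, with raw intensities of 196.6, 130.6 and 139.8 on the empty vector arrays and 404.8, 357.3 and 521.7 on the arrays labelled uPA overexpression. The log2 values were 7.07, 6.37 and 6.51 against 8.47, 8.25 and 8.74, with no overlap and a gap of 1.18 between the nearest arrays. The means were 6.65 ± 0.37 and 8.49 ± 0.25 (SD, n = 3 each), and the difference was 1.84 (SE 0.211), or 3.58-fold.

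Cma1 (mMCP-5) is the mouse alpha-chymase, which in rodents cleaves like an elastase and is stored together with Cpa3. Its probe ILMN_2997068 had raw intensities of 164.4, 106.5 and 117.2 on the empty vector arrays and 309.1, 261.3 and 375.6 on the arrays labelled uPA overexpression. In log2 units this was 6.68, 5.81 and 6.05 against 8.01, 7.69 and 8.22, means of 6.18 ± 0.45 and 7.97 ± 0.27 (SD, n = 3 each) and a difference of 1.79 (SE 0.239), or 3.46-fold. The other probe, ILMN_1225727, had log2 values of 6.33, 5.87 and 5.61 against 7.62, 7.61 and 7.96. Its difference was also 1.79 (SE 0.198), and the groups did not overlap on either probe.

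**Figure D1:**
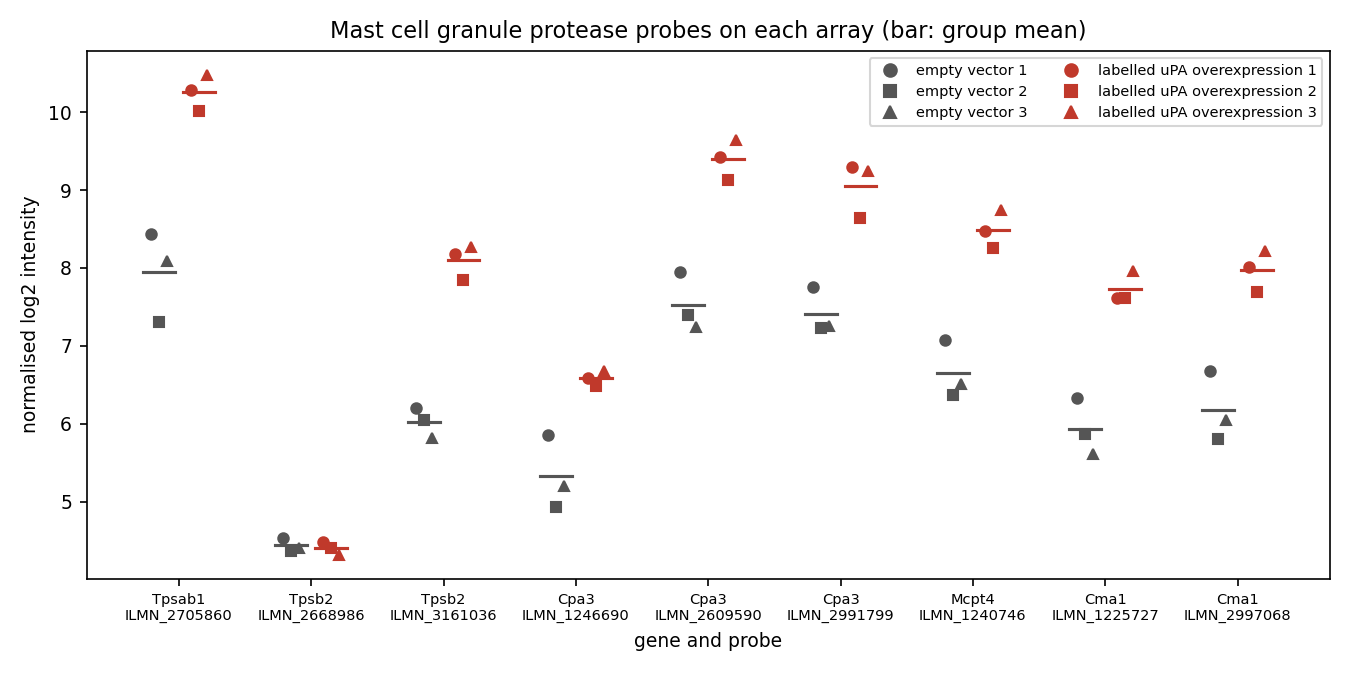
Normalised log2 intensity (vertical axis) of each of the 9 probes of the 5 protease genes (horizontal axis) on the 6 arrays, with grey points for empty vector, red points for arrays labelled uPA overexpression, and a bar at each group's mean. On 8 probes every red point lies above every grey point, and on Tpsb2 probe ILMN_2668986, not above background on any array, the points of both groups lie together near the floor.

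Of the 9 probes, 8 passed the filter on dim probes, and on 8 of these 8 the groups did not overlap and the arrays labelled uPA overexpression were higher. Over the whole array 2704 of 20434 tested probes, 13.2%, had that pattern. All 5 genes were higher in the fit that compared the groups, in which 283 of 10849 genes, 2.61%, were higher and 374, 3.45%, were lower. Since the members were chosen on this contrast, nothing is read from either count. The differences of the 5 genes ran from 1.79 to 2.31 with a median of 1.87, against a median of -0.003 over all genes tested. The standard errors were 0.154 to 0.282 for the probes that stand for the genes. In this order Cpa3, Mcpt4 and Cma1 lay well within them of each other, and the steps between Tpsab1, Tpsb2 and Cpa3 were of about their size.

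The arrays of a group differed in the same way on most of the 8 probes. Empty vector array 1 was the highest of its group on 8 of 8 probes, and the lowest was array 2 on 5 and array 3 on 3. Among the arrays labelled uPA overexpression, array 3 was the highest on 7 of 8 probes and array 2 the lowest on 8 of 8. Some of these probes read the same gene, and the share of all probes with these orders was not counted, so nothing is read from the counts. Empty vector array 1 and array 3 labelled uPA overexpression also had the highest mean raw intensity of their groups (460.0 and 460.8), and a link was not tested. With each gene centred on its mean over the 6 arrays, the mean profile of the 5 genes was -0.59, -1.27 and -1.11 on empty vector arrays 1, 2 and 3 and 1.02, 0.73 and 1.22 on arrays 1, 2 and 3 labelled uPA overexpression. The range of this profile within a group was 0.68 for empty vector and 0.49 for the other label, and the distance between the group means was 1.98. Of the probes that stand for the genes, Tpsab1 spread most within empty vector, from 7.31 to 8.44, and Tpsb2 least, from 5.82 to 6.20.

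The size of the differences depended on how background was treated, more for the dim genes than for Tpsab1. Without background correction the differences were 2.07 for Tpsab1, 1.59 for Cpa3, 1.45 for Tpsb2, 1.40 for Mcpt4 and 1.24 for Cma1. In the authors' deposited processed values they were 2.05, 1.57, 1.41, 1.37 and 1.22 in the same order of genes. The directions held in all 16 alternatives tried for each of the 5 genes, and the median of the 5 ranged from 1.41 to 2.07. The genes were chosen for their rise on these same arrays, so nothing is read from the directions, only from the sizes. Leaving out 1 array at a time gave medians from 1.74, without array 3 labelled uPA overexpression, the one with the high muscle list, to 2.07, without empty vector array 1.

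**Figure D2:**
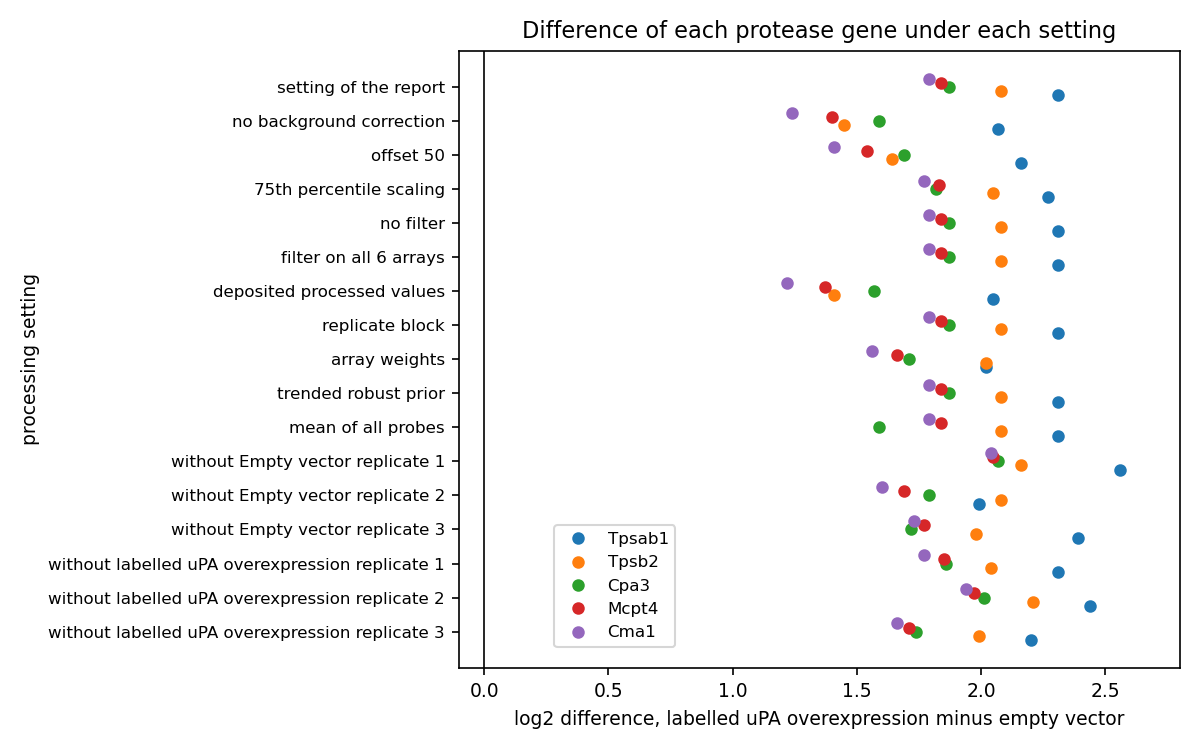
Difference of group means in log2 units (horizontal axis) for each of the 5 protease genes (coloured points) under the setting used here and 16 alternatives (vertical axis). All points lie to the right of 0, between 1.22 and 2.56, and the deposited processed values and the values without background correction give the smallest differences for Tpsb2, Mcpt4 and Cma1.

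The other genes of the mast cell protease system were taken from 6 lists of other mast cell proteases, mast cell markers, granule content, release and lipid mediators, inhibitors, and receptors and substrates. Of 86 genes on these lists outside the 5 members, 56 were tested. In the fit over all genes 6 of them rose, 10.7%, and 5 fell, 8.93%, where over all genes 2.61% rose and 3.45% fell, and the median difference was -0.04. The 6 that rose were Cma2, Hpgds, Fcer1a, Mrgprb2, Alox5 and Alox5ap, of which Mrgprb2 was above background in 1 group alone, and the 5 that fell were Stx3, Serpinb6b, Mmp3, Edn1 and Mmp9. These counts changed when 1 array was left out, and the cause was not tested. The number that rose by limma was 2 without empty vector array 1 and 1 without empty vector array 3. It was 1 without array 1 and 1 without array 3 labelled uPA overexpression, and 4 to 6 without 1 of the remaining arrays. At an unadjusted p under 0.05 the number higher was 14 with all 6 arrays and 10 to 18 with 1 left out. The number that fell by limma was 0 without empty vector array 1 (8 at an unadjusted p under 0.05), 0 without empty vector array 3 (9 at an unadjusted p under 0.05), 1 without array 1 and 1 without array 3 labelled uPA overexpression, and 4 to 6 without 1 of the remaining arrays. Counts at an unadjusted p are given here and below without the share of all genes at that threshold. That share was not counted, so nothing is read from them.

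Among the other mast cell proteases 11 were on the array and 3 were tested, of which 1 rose and 0 fell by limma, with the same counts of 1 and 0 at an unadjusted p under 0.05. The one that rose was Cma2, a chymase gene near Cma1 and Mcpt4 on chromosome 14. Its log2 values were 7.95, 7.10 and 7.64 on the empty vector arrays and 9.16, 8.86 and 9.37 on the arrays labelled uPA overexpression, with no overlap. As for the 5 proteases, array 1 was the highest of the empty vector arrays and array 2 the lowest of the arrays labelled uPA overexpression. The difference was 1.57 (SE 0.232, limma adjusted p = 0.0175), and the call was lost without empty vector array 3 (0.0599), array 1 (0.0633) or array 3 (0.0641) labelled uPA overexpression. A second Cma2 probe was not above background on any array, and Cma2 and its paralogues may share probe signal, which was not tested. The mucosal mast cell chymase Mcpt1 did not pass (-0.51, SE 0.346, limma adjusted p = 0.431), with means of 8.03 ± 0.29 and 7.52 ± 0.72 (SD, n = 3 each). The basophil protease Mcpt8 did not pass either (-0.48, SE 0.213, limma adjusted p = 0.237), with means of 6.70 ± 0.34 and 6.22 ± 0.30 (SD, n = 3 each). Mcpt2, Mcpt9, Prss34, Prss28, Prss29, Prss27 and Gzmb were not above background on any array, and Ctsg was above it on 1.

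The mast cell marker list bears on the cell type that the 5 genes are named for. Of its 14 genes on the array 10 were tested, 3 rose and 0 fell by limma, 8 of 10 had a difference above 0, and the median was 0.48. At an unadjusted p under 0.05, 5 were higher and 0 lower. Hpgds, the enzyme that makes prostaglandin D2, was 6.70, 6.20 and 6.70 on the empty vector arrays and 7.92, 7.79 and 7.69 on the arrays labelled uPA overexpression. It rose by 1.26 (SE 0.158, limma adjusted p = 0.0126), its other probe differed by 1.58, and the call was lost without empty vector array 1 (0.051). Fcer1a, the IgE-binding chain of the high-affinity IgE receptor, was 6.82, 5.98 and 6.17 against 7.69, 7.53 and 7.56. It rose by 1.27 (SE 0.212, limma adjusted p = 0.023), and the call was lost without empty vector array 3 (0.0789) and without array 1 (0.0835), array 2 (0.0523) or array 3 (0.0697) labelled uPA overexpression. The other Fcer1a probe, above background on 0 empty vector arrays and on all 3 others, differed by 0.84. Mrgprb2, the mouse receptor through which basic peptides trigger connective tissue mast cells, was not above background on any empty vector array and was above it on all 3 others. The second group was at least 1.57-fold higher (limma adjusted p = 0.0185), with measured means of 4.60 ± 0.06 and 5.67 ± 0.32 (SD, n = 3 each). It passed the filter on dim probes only through the group in which it was high, so it had to differ, and its call is no support for the list. Without it 2 of 9 tested markers rose, Hpgds and Fcer1a, with a median of 0.43, and 5 of 55 genes of the 6 lists rose, 9.09%. Fcer1a is also on the basophil list described further on, so its call is not particular to mast cells. The Mrgprb2 call was lost without empty vector array 1 (0.068) or array 3 (0.0657). Without any 1 array labelled uPA overexpression Mrgprb2 no longer passed the filter on dim probes. A lower bound of this kind takes the mean log2 of the brighter group over the mean of, per array of the dim group, the higher of the lowest signal above background and the probe's own.

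Hdc, which makes histamine, did not pass, at 8.93 ± 0.36 and 9.36 ± 0.37 (SD, n = 3 each; limma adjusted p = 0.334), and its groups overlapped. The following markers were chosen for naming after their values were seen. Kit, the stem cell factor receptor that mast cells need, was 8.07 ± 0.27 against 8.43 ± 0.39 (SD, n = 3 each; limma adjusted p = 0.386). Gata2 was 7.19 ± 0.28 against 7.72 ± 0.19 (SD, n = 3 each; limma adjusted p = 0.126). Ms4a2 and Fcer1g, the other chains of the IgE receptor, and Mrgprb1, each read by 1 probe, were not above background on any array, and Mitf on 1 of each group at most. Whether these probes read their transcripts well was not tested. The summed intensity of the 10 tested markers was 1518, 1328 and 1101 on the empty vector arrays and 1823, 1969 and 1918 on the arrays labelled uPA overexpression. For the 5 proteases the sums were 903, 533 and 637 against 2831, 2332 and 3267. Neither sum overlapped between the groups. The proteases were chosen for their rise, so the sums are not compared with each other. The marker sum is drawn most from Hdc and Kit, the brightest of the 10, whose groups overlapped, and it includes Mrgprb2.

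The granule content list holds genes for the proteoglycan, amines and lysosomal hydrolases of the granule, most of which other cells also express. Of its 18 genes on the array 15 were tested, and 0 rose and 0 fell by limma, with 4 higher and 3 lower at an unadjusted p under 0.05 and a median of -0.05. Gusb, the lysosomal beta-glucuronidase, was 11.64 ± 0.16 and 12.08 ± 0.05 (SD, n = 3 each; limma adjusted p = 0.0607), and it passed in 6 of 16 alternatives. Arsb, the lysosomal arylsulfatase B, was 10.06 ± 0.29 and 10.74 ± 0.41 (SD, n = 3 each; limma adjusted p = 0.144). Ext1 and Ext2, which build heparan sulfate chains, differed by -0.28 (limma adjusted p = 0.144) and 0.05 (limma adjusted p = 0.795). Srgn, the serglycin core protein that carries heparin, was named after its value was seen and did not pass, at 9.60 ± 0.57 and 9.07 ± 0.22 (SD, n = 3 each; limma adjusted p = 0.309).

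Of 11 genes of granule release and lipid mediators, all tested, 3 rose and 1 fell, with a median of 0.18. Besides Hpgds these were the leukotriene genes Alox5 and Alox5ap, which mast cells share with macrophages and other myeloid cells. Alox5 was 6.28, 6.59 and 5.71 on the empty vector arrays and 7.84, 7.36 and 8.11 on the arrays labelled uPA overexpression, and it rose by 1.58 (SE 0.266, limma adjusted p = 0.0232). Its other probes, not above background on every array, differed by 0.64 and 0.97. Alox5ap, the membrane protein that presents substrate to Alox5, rose by 0.95 (SE 0.162, limma adjusted p = 0.0241), from 10.52 ± 0.24 to 11.47 ± 0.22 (SD, n = 3 each). Stx3, a syntaxin of the membrane fusion machinery, fell by 0.61 (SE 0.113, limma adjusted p = 0.0301), from 8.71 ± 0.14 to 8.10 ± 0.11 (SD, n = 3 each). All 3 calls were lost without empty vector array 1, without empty vector array 3, without array 1 and without array 3 labelled uPA overexpression, with adjusted p from 0.0599 to 0.1.

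Of 7 tested inhibitors 0 rose and 1 fell by limma, with 1 higher and 2 lower at an unadjusted p under 0.05 and a median of -0.16. Serpinb6b, an intracellular serpin, fell by 0.77 (SE 0.112, limma adjusted p = 0.0167), from 7.25 ± 0.11 to 6.48 ± 0.14 (SD, n = 3 each). Its call was lost without empty vector array 1 (0.0626), empty vector array 3 (0.0561), array 1 (0.0539) or array 3 (0.0583) labelled uPA overexpression. Slpi, a secreted inhibitor of neutrophil elastase and chymase in human, differed by 0.35 (limma adjusted p = 0.125). Wfdc2, of the same family of small secreted proteins, differed by -0.33 (limma adjusted p = 0.0947), and Serpinb6a by -0.24 (limma adjusted p = 0.229).

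Of 13 tested receptors and substrates of the proteases 0 rose and 3 fell by limma, with 0 higher and 3 lower at an unadjusted p under 0.05 and a median of -0.22. Mmp9, the gelatinase whose proenzyme Mcpt4 processes in the mouse, was 13.55, 13.68 and 13.50 on the empty vector arrays and 11.72, 12.68 and 11.13 on the arrays labelled uPA overexpression. It fell by 1.73 (SE 0.349, limma adjusted p = 0.0365), and the call was lost without any 1 array other than array 2 labelled uPA overexpression (adjusted p from 0.0697 to 0.114), without a filter on dim probes (0.0654) and with a trended robust prior (0.0771). Mmp3, stromelysin 1, was 12.23, 12.17 and 12.36 against 10.52, 11.24 and 11.26 and fell by 1.25 (SE 0.205, limma adjusted p = 0.0219). Its other probes differed by -1.15 and -1.14, and its call was lost without empty vector array 1 (0.0773), empty vector array 3 (0.0774) or array 3 labelled uPA overexpression (0.0533). Edn1, the precursor of endothelin 1, was 7.43, 7.70 and 7.30 against 6.45, 6.21 and 6.76 and fell by 1.00 (SE 0.17, limma adjusted p = 0.0236). Its call was lost without any 1 array other than empty vector array 2 and array 3 labelled uPA overexpression, with adjusted p from 0.0518 to 0.0835. Fn1, fibronectin, differed by -0.14 (limma adjusted p = 0.675).

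**Figure D3:**
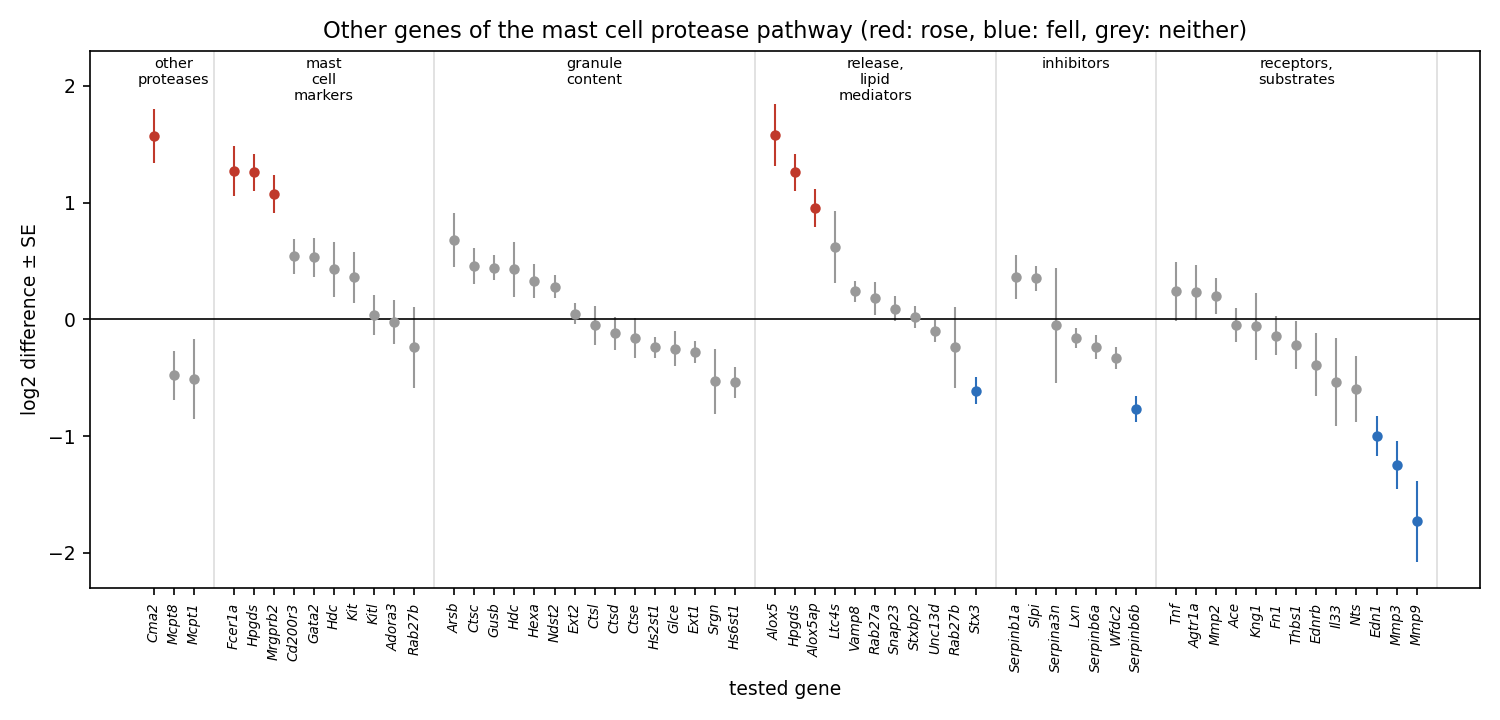
Difference of group means with its SE in log2 units (vertical axis, above 0 where the arrays labelled uPA overexpression were higher) for each tested gene of the 6 lists around the proteases (horizontal axis, a gene on more than 1 list drawn in each), coloured by the limma test over all genes. The points that rose are Cma2, Fcer1a, Hpgds, Mrgprb2, Alox5 and Alox5ap, the points that fell lie among release genes, inhibitors and substrates, and the granule content genes are all grey.

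The 10 genes outside the members with patterns nearest to the mean profile of the 5, by root mean square distance of centred log2 values over the 6 arrays, were Fcrls (0.206), Cma2 (0.234), Angpt1 (0.246), Lyz2 (0.285), Fcna (0.288), Gpr34 (0.318), Slc28a2b (0.359), Fcer1a (0.381), Alox5 (0.399) and Clec4a3 (0.419). The distances of the 5 members from their own mean were 0.073 for Mcpt4, 0.108 for Cpa3, 0.109 for Cma1, 0.17 for Tpsb2 and 0.252 for Tpsab1, and the median over all tested genes was 1.04. The members make up this mean and were chosen on this contrast, so their short distances were built in. A gene near the profile must itself be higher in the arrays labelled uPA overexpression. The rises of the 10 genes therefore come from how they were picked, and nothing is read from them. Cma2 and Fcer1a were the mast cell genes among the 10. Slc28a2b stayed at background level throughout the empty vector group, at 4.75, 4.32 and 4.56, against 5.64, 5.70 and 6.45. It passed the filter on dim probes only through the group in which it was high. A rise was thus built in, and nothing is read from its place among the 10. Lyz2, the lysozyme of macrophages and neutrophils, was 13.44, 12.43 and 13.10 on the empty vector arrays and 14.66, 14.37 and 14.56 on the arrays labelled uPA overexpression, with the same order of empty vector arrays as Tpsab1. Its difference was 1.54, and its other probes, above background on every array, differed by less, 1.08 and 0.90. Fcrls, an Fc receptor-like gene of mouse macrophages and microglia, was 11.07, 10.61 and 10.98 against 12.99, 12.21 and 12.91, a difference of 1.82, with 2.28 and 2.01 on its other probes. Angpt1, which encodes the ligand of the endothelial receptor Tie2, was 5.53, 4.97 and 5.60 against 7.26, 6.86 and 7.12, and its other probes were not above background on any array. On all 3 genes the groups did not overlap and empty vector array 2 was the lowest of the 6.

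**Figure D4:**
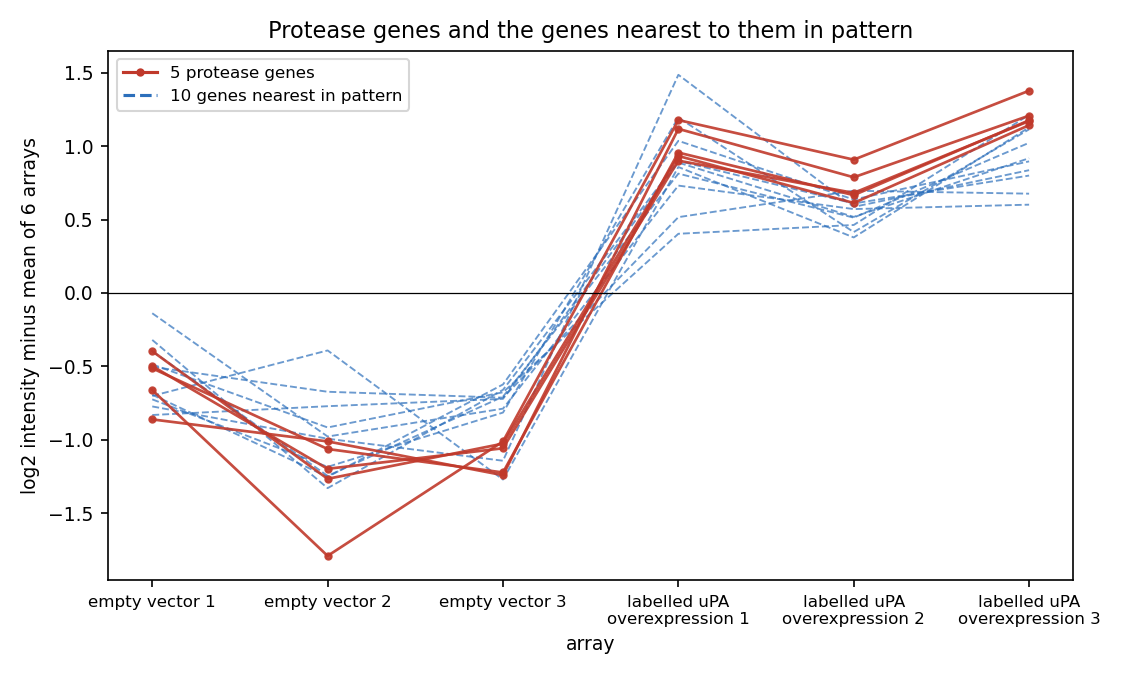
Log2 intensity of each gene minus its mean over the 6 arrays (vertical axis) on each array (horizontal axis), for the 5 protease genes (red, solid) and the 10 genes nearest in pattern (blue, dashed), with lines joining the values of 1 gene. The protease genes lie between -1.8 and -0.4 on the empty vector arrays and between 0.61 and 1.38 on the arrays labelled uPA overexpression.

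Markers of other cell types moved with the same grouping of arrays. Of 9 tested macrophage genes 7 rose and 0 fell by limma, 8 were higher and 0 lower at an unadjusted p under 0.05, 9 of 9 had a difference above 0, and the median was 0.76, with summed intensity of 16017 to 17450 on the empty vector arrays and 26803 to 31869 on the arrays labelled uPA overexpression. Of 8 tested epithelial and carcinoma genes 0 rose and 5 fell by limma, 0 were higher and 6 lower at an unadjusted p under 0.05, 8 of 8 had a difference below 0, and the median was -1.0, with sums of 44448 to 50354 and 26744 to 31680. Of 7 tested basophil genes 1 rose, Fcer1a, with sums of 742 to 805 and 907 to 1268, while the basophil proteases Mcpt8 and Prss34 did not pass or were not above background. For eosinophils 1 of 6 genes on the array was tested, Prg2, which did not pass (-1.15, limma adjusted p = 0.0992), and Epx, Ccr3, Siglecf, Il5ra and Ear6 were not above background on any array. Of 5 neutrophil genes 0 rose and 1 fell by limma, with 0 higher and 2 lower at an unadjusted p under 0.05 and a median of -0.51, and sums of 1942 to 2510 on the empty vector arrays and 1081 to 1799 on the others. Of 5 T and NK cell genes 1 rose and 0 fell by limma, with 3 higher and 0 lower at an unadjusted p under 0.05 and a median of 0.40, and sums of 355 to 471 and 575 to 613. The sums of the macrophage, basophil, T and NK cell, neutrophil and epithelial lists thus each separated the groups with no overlap, as did the 1 eosinophil gene (70 to 111 against 29 to 69), the first 3 upward and the others downward. The basophil sum is drawn most from Il6ra, the brightest gene of that list, which did not pass (0.47, limma adjusted p = 0.272). How often the sum of any list of genes separates the groups was not counted, so nothing is read from these separations. The part of these cell types in the protease result was not tested.

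The sums of the lists of tissues around a tumour overlapped between the groups. The proteases were chosen for their rise, so these lists are not compared with them. The part of these tissues in the protease result was not tested. Of 10 fibroblast genes 0 rose and 0 fell by limma, with 0 higher and 1 lower at an unadjusted p under 0.05 and a median of -0.02, and sums of 13586 to 19573 overlapped 13374 to 18259. Of 6 adipocyte genes 0 passed in either direction, 0 also at an unadjusted p under 0.05, and sums of 358 to 1796 on the empty vector arrays overlapped 542 to 1353 on the others. Of 7 skeletal muscle genes 0 passed, 0 also at an unadjusted p under 0.05, 7 of 7 had a difference above 0, and the median was 0.47. The muscle list was highest on array 3 labelled uPA overexpression, which was also the highest array for 7 of 8 protease probes, and without that array the protease median was 1.74. Of 9 endothelial genes 0 rose and 0 fell by limma, with 2 higher and 0 lower at an unadjusted p under 0.05 and a median of -0.07, and sums of 6263 to 6956 overlapped 5398 to 7615.

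**Figure D5:**
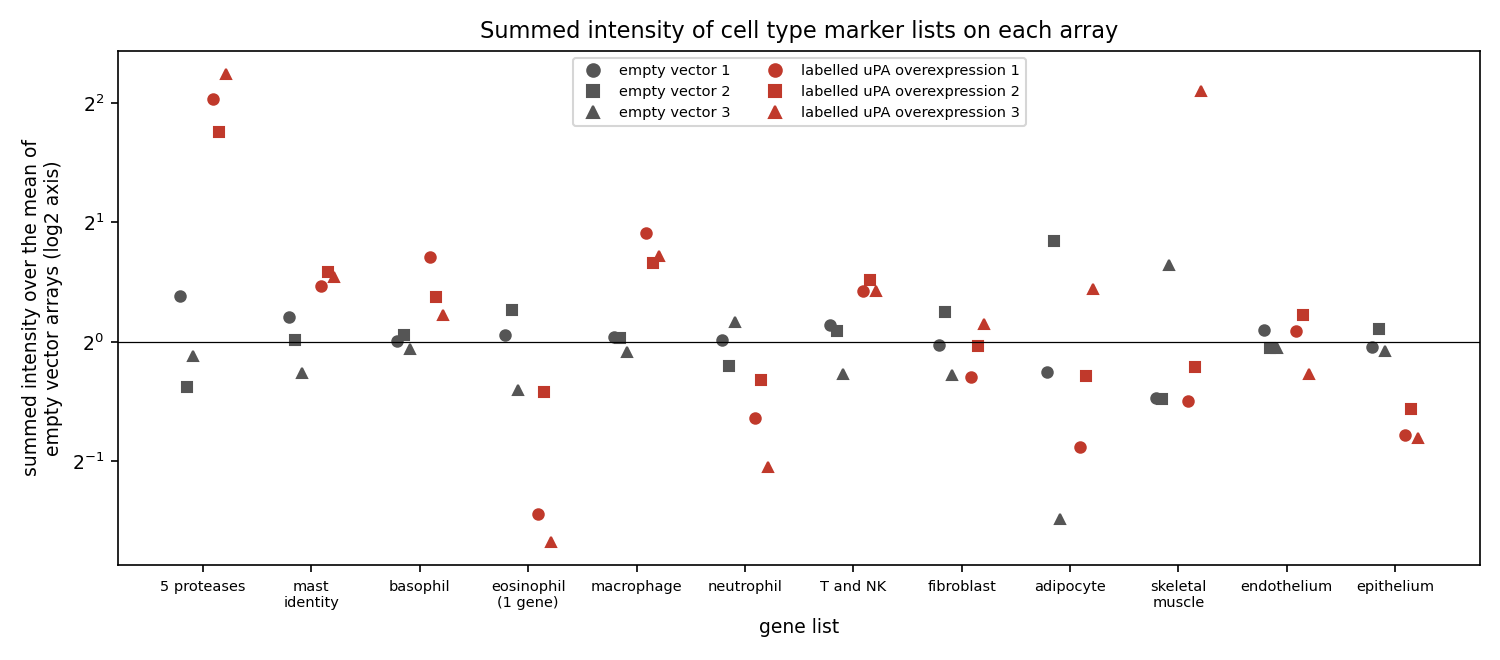
Summed normalised intensity of each gene list on each array, divided by the mean of the empty vector arrays (vertical axis, log2 scale), for the 5 proteases and 11 cell type lists (horizontal axis), with grey points for empty vector and red points for arrays labelled uPA overexpression. Red points lie above grey for the proteases and the mast cell, basophil, macrophage, and T and NK cell lists and below grey for the eosinophil gene and the neutrophil and epithelial lists, and the groups overlap for fibroblast, adipocyte, muscle and endothelial lists.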

How the data were processed

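Biotin-labelled cRNA of the 6 tumour samples was hybridised to Illumina MouseWG-6 BeadChips, and the titles gave the groups, per the labels. The deposited raw table holds an intensity per probe, neither background-corrected nor normalised, with a detection p-value that the authors' file header names as such but that the values show to be 1 minus the usual one, and it was turned round. The processed table that the authors deposited holds log2 values made with GeneSpring GX 11.0 per the series design text. They match differences of quantile-normalised log2 intensities, centred per probe on a level that stays unknown, and column medians were 0.00227, 0.0042 and 0.00197 for empty vector and 0.00332, 0.00247 and 0.00288 for the uPA label. Scanning and bead summary were not stated in the labels used.

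The raw table names probes by address and the processed one by probe ID, so rows were joined by value: 45251 of 45281 matched, with a median log2 distance of 0.000221, where the next nearest row was 0.0325 away, and 9 of 9 protease probes matched at least 40 times nearer. Symbols came from the platform annotation (34885 probes with 1 symbol, 18 with several, 10378 with none). Values were corrected by normexp with offset 16, converted to log2 and quantile-normalised (limma 3.58.1, R 4.3.3, Python 3.11.15). A probe was tested if at least 3 of the 6 arrays had a detection p under 0.05, which kept 20434 or 45.1%, and a gene took its probe of highest mean. The 10849 genes were fitted with lmFit and eBayes without covariates, p-values were two-sided and adjusted by Benjamini-Hochberg, and 0.05 was the threshold (4 residual and 3.1 prior degrees of freedom). The fit and the join were tested on simulated data. Replicate numbers did not pair the samples: deviations of same-numbered arrays correlated at -0.111, -0.222 and 0.116.

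The members and all lists were chosen with earlier results of these data known. Named genes were the 5 members, Plau, up to 4 genes of each list around the proteases (those that passed by smallest p, then by mean level), and the 10 nearest in pattern with clone and predicted names skipped. In the deposited processed values each gene kept the same probe, since centred values carry no level, a choice made after a gene's value had been seen to depend on it. Alternatives changed the background correction (none, or offset 50), the scaling (75th percentile), the filter (none, or all 6 arrays), the source of values (deposited processed), the model (replicate block, array weights, trended robust prior) and the probes (mean of a gene's probes), and left out each array in turn.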

Additional observations from a re-analysis of the deposited data

How the results depend on the processing

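Each of the 5 protease genes was higher in the tumours labelled uPA overexpression under all 16 alternatives. The genes were chosen for that rise, so nothing is read from the direction. Their median difference was 1.87. It was 1.45 with no background correction, 1.41 by the processed values deposited, and 1.74 to 2.07 with 1 array left out. Background left in the values shrinks ratios of dim probes by construction. The count of genes higher was 283, 554 with array weights and 51 with the replicate block, and 21 to 324 with 1 array left out. The count of genes lower was 374, then 635, 75, and 21 to 312. Of the genes around the proteases 6 were higher and 5 lower. With the replicate block these were 3 and 0 by limma (13 and 9 at an unadjusted p under 0.05), and with 1 array left out they were 1 to 6 and 0 to 6. Plau differed by -0.80, also with the replicate block (limma adjusted p = 0.0705, no longer past the threshold), and by -0.92 to -0.69 with 1 array left out. The block also ended the calls of Mrgprb2 (0.0549), Alox5 (0.0772), Alox5ap (0.0815), Stx3 (0.0749), Serpinb6b (0.0566), Mmp3 (0.0506), Edn1 (0.0817) and Mmp9 (0.0541), each given as a limma adjusted p. The cause of these changes was not tested, except that fewer arrays and a block leave fewer degrees of freedom. Replicate numbers did not pair the samples, so the block results bear on the number alone. Alternatives other than those named kept these counts within 1.5 times.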
